A study of Mus musculus with 9 samples.

Results

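The genes of the MHC class I antigen presentation pathway were examined in RNA-seq of mouse retinal explants cultured with or without 2-deoxy-D-glucose (2-DG), a glucose analogue that is phosphorylated by hexokinase, is not metabolised further by glycolysis, and also interferes with N-linked glycosylation. The set held 10 genes chosen by symbol out of 55487 in the gene table: the heavy chains H2-K1, H2-D1 and H2-T23, the light chain B2m, the peptide transporter subunits Tap1 and Tap2, the loading factor Tapbp, the immunoproteasome subunits Psmb8 and Psmb9, and the transactivator Nlrc5. All 10 were found in the table and all 10 passed the filter on low counts. The libraries were 5 of control explants and 4 of 2-DG explants, all from wild-type C57BL/6J animals, at postnatal day 28. Their retinas were freed of sclera and pigment epithelium, cultured for 48 h at 5 mM glucose, either alone or together with 2-DG at 20 mM, and then held for 1 h in Krebs' Ringer solution. Every library was made from total RNA of whole explants, a severed tissue without circulation, and the labels place all of them in batch 1. The titles call the libraries biological replicates but do not say whether they came from separate animals, so p-values measure the spread between these libraries.

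MHC class I molecules show peptides from inside the cell to CD8 T cells and natural killer cells. The proteasome, in its interferon-inducible form with Psmb8 and Psmb9, cuts proteins into peptides. The Tap1/Tap2 transporter carries these into the endoplasmic reticulum, where Tapbp (tapasin), calreticulin and Pdia3 (ERp57) help to load them onto a heavy chain paired with B2m. Nlrc5 is the transactivator of this gene set, and interferons raise its expression and that of most of the other members. The healthy neural retina is an immune-privileged tissue with low class I levels, and endothelial cells and microglia are among its better known sources.

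Of the 10 genes, 8 lie on chromosome 17 of GRCm38, between Tapbp (33915899 to 33929292) and H2-T23 (36029773 to 36032855). B2m is on chromosome 2 (122147686 to 122153083) and Nlrc5 on chromosome 8 (94434356 to 94527272). Within the chromosome 17 region, Psmb9 (34181987 to 34187764, minus strand), Tap1 (34187553 to 34197225), Psmb8 (34197721 to 34201454) and Tap2 (34203527 to 34216321) follow each other as neighbours. Psmb9 and Tap1 point away from each other and their annotated first exons overlap. H2-K1 lies at 33996017 to 34000347 on the minus strand and H2-D1 at 35262730 to 35267499.

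The stretches upstream of H2-K1 and B2m are shown because a heavy chain and the light chain it pairs with are known as interferon-inducible together, and a short piece of H2-K1 and H2-D1 because these close relatives are set against each other below. They were read from RefSeq windows (GRCm38.p6) of 250 bases before an annotated start, which were given for 8 of the 10 members, without Tap2 and Nlrc5. Each is written 5′ to 3′ on the strand of its gene, and the longer pieces end where the first annotated exon of GENCODE M21 begins. Capitals mark every match, on either strand, to the ISRE core GAAANNGAAA, the interferon regulatory factor motif GAANNGAAA, the NF-kB consensus, the CRE core TGACG and the Y box core CCAAT.
H2-K1, chr17:34000348-34000583, minus strand: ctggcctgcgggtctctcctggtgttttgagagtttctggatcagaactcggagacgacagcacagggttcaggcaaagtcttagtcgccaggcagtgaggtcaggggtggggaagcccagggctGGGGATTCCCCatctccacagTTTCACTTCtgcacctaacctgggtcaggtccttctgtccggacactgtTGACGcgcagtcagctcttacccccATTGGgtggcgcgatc
B2m, chr2:122147437-122147685, plus strand: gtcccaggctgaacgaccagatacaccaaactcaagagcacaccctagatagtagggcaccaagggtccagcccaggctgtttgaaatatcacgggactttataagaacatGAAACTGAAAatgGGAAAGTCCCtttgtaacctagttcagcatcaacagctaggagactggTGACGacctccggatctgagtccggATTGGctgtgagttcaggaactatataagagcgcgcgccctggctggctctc
H2-K1, chr17:34000429-34000458, minus strand, NF-kB to interferon regulatory factor motif: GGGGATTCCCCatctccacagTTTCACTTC
H2-D1, chr17:35262923-35262952, plus strand, NF-kB to interferon regulatory factor motif: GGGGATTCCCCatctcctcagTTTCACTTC

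The H2-K1 and H2-D1 windows carried the same motifs in the same order. Shifted by 46 bases against each other, they were identical at 169 of 204 bases (82.8%). Among 27025 RefSeq windows of 250 bases, the ISRE core was found in 3.03%, and among the 8 members in H2-T23 and B2m. GAANNGAAA stood in 6.48% of all windows and in H2-K1 and H2-D1, and the NF-kB consensus in 7.11% of all windows and in H2-K1, H2-D1 and B2m. TGACG was held by 17.5% of all windows and by H2-K1, H2-D1, B2m, Tap1 and Psmb9. CCAAT was held by 34.0% of all windows and by 7 of the 8 members, all but Psmb8. The GAS motif TTCNNNGAA was in 7.12% of all windows and among the members in Psmb8. The TGACG and CCAAT of Tap1 and Psmb9 are the same letters, since their windows overlap between the 2 starts. GENCODE M21 begins several of these genes farther upstream than RefSeq, so that the windows of H2-D1, Psmb8 and Psmb9 lie wholly in annotated exons of their gene, as do 154 of 250 bases for H2-T23 and 146 for Tapbp, whose window lies wholly within the gene. That of Tap1 runs into the first exon of Psmb9. A match is a run of letters and was not tested for binding.

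Library totals ranged from 11318087 to 51802230 estimated counts, so that 3 counts, the limit that a count of 0 allows, were worth 0.0579 to 0.265 CPM, the unit in which each library's counts are scaled to a common total. This limit covers counting error only. Control replicate 2 stood apart by its summed level of 10 rod photoreceptor markers, 43477 CPM against 4995 to 16652 CPM in the other 8 libraries, and of 8 cone markers, 578 CPM against 70.7 to 133 CPM in the other libraries except 2-DG replicate 3, at 811 CPM. The members' log2 fold changes, the ratios, the counts of the gene lists and the retained-intron shares of H2-K1 and H2-T23 are therefore given without it as well. The retinal label was matched by the markers of rods, cones, bipolar cells and Müller glia, each of which exceeded 1 CPM in at least 1 library.

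No member of the set differed between 2-DG and control explants beyond the spread between libraries. At an adjusted p under 0.05 in edgeR's quasi-likelihood test, 0 of the 10 members were called, beside 0% of all 21049 genes tested. At an unadjusted p under 0.05 the count was also 0 of 10, beside 7.25% of all genes. The groups overlapped in all 10 members, and they did not overlap in 2.93% of all genes. At that share, 0 of 10 does not set the members apart from other genes. In the 2-DG group 4 members had a higher fitted level and 6 a lower one, with a median log2 fold change of -0.08 beside -0.01 over all genes tested. Neither number was stable, since 9 of 10 were lower with a median of -0.40 without 2-DG replicate 4 and 2 were lower with a median of 0.19 without control replicate 5. With limma-voom 9 were lower with a median of -0.39, and 1, H2-K1, had an unadjusted p under 0.05, beside 26.0% of all genes. Here and throughout, positive log2 fold changes stand for a higher level in 2-DG explants.

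The heavy chains H2-K1 and H2-D1, the classical class I molecules of this strain, varied most within the groups. H2-K1 measured 301, 114, 275, 569 and 697 CPM in control replicates 1 to 5 and 163, 225, 180.1 and 816 CPM in 2-DG replicates 1 to 4. Control replicates 4 and 5 and 2-DG replicate 4 were high, the other 2-DG libraries were low, and the groups overlapped. The group means were 391 ± 236 CPM (SD, n = 5) and 346 ± 314 CPM (SD, n = 4), a log2 fold change of -0.18 with a standard error of 0.61 and an adjusted p of 0.957 in edgeR. Its size depended on 2-DG replicate 4, without which the log2 fold change of H2-K1 was -1.05 (adjusted p = 0.422 in edgeR).

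H2-D1 measured 307, 127, 266, 567 and 723 CPM in control replicates 1 to 5 and 264, 304, 206 and 1098 CPM in 2-DG replicates 1 to 4. The same 3 libraries were high as for H2-K1. Its log2 fold change was 0.23 (SE 0.60, adjusted p = 0.939 in edgeR), a direction that rested on 2-DG replicate 4, without which the log2 fold change of H2-D1 was -0.62 (adjusted p = 0.612 in edgeR). H2-T23 encodes the non-classical molecule Qa-1, whose peptide is read by natural killer cell receptors. It was the steadiest member, with 13.3, 10.1, 9.31, 16.1 and 21.3 CPM in the controls and 16.0, 16.6, 18.3 and 18.4 CPM in the 2-DG libraries. All 4 2-DG libraries lay above the control mean (SD 4.89 CPM, n = 5), while control replicate 4 lay among them and control replicate 5 above them. The log2 fold change of H2-T23 was 0.31 (SE 0.28, adjusted p = 0.831 in edgeR).

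B2m, the invariant light chain without which a heavy chain is not stably shown at the surface, measured 153, 119.6, 143, 341 and 481 CPM in the controls and 179, 188, 237 and 848 CPM in the 2-DG libraries. The 3 lowest values were control replicates 1 to 3, but control replicates 4 and 5 exceeded 3 of the 4 2-DG libraries. B2m had the highest log2 fold change of the set, 0.55 with a standard error of 0.58 (95% interval -0.72 to 1.83, adjusted p = 0.846 in edgeR). This value rested on 2-DG replicate 4, without which the log2 fold change of B2m was -0.30.

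Tap1 measured 55.7, 11.5, 43.1, 66.7 and 83.5 CPM in the controls and 34.8, 58.8, 23.5 and 43.1 CPM in the 2-DG libraries. Its range in controls, 7.29-fold from lowest to highest, enclosed all 2-DG values. Tap2, the partner subunit of the transporter, measured 21.3, 14.5, 29.0, 52.5 and 68.5 CPM in the controls and 24.6, 25.9, 26.3 and 64.6 CPM in the 2-DG libraries. The subunits differed in 2-DG replicate 4, which was second highest of 9 libraries for Tap2 and sixth highest for Tap1. Tapbp, the bridge between the transporter and the empty heavy chain, ranged from 53.8 to 199 CPM in controls and from 63.5 to 215 CPM in 2-DG libraries. The log2 fold changes were -0.38 (SE 0.48) for Tap1, -0.07 (SE 0.48) for Tap2 and -0.09 (SE 0.43) for Tapbp. Without 2-DG replicate 4 those of Tap2 and Tapbp were -0.54 and -0.50.

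Psmb8, which replaces the constitutive subunit Psmb5 in the immunoproteasome, measured 13.2, 5.44, 6.11, 21.4 and 33.2 CPM in the controls and 10.4, 11.7, 14.5 and 30.2 CPM in the 2-DG libraries. Psmb9, which replaces Psmb6, measured 7.38, 2.08, 6.72, 8.56 and 11.7 CPM in the controls and 7.04, 11.6, 3.19 and 4.63 CPM in the 2-DG libraries. The 2 subunits parted in 2-DG replicates 3 and 4, which were the fourth and the second highest for Psmb8 and the eighth and the seventh for Psmb9. Nlrc5, the transactivator, measured 36.0, 5.08, 26.4, 23.8 and 37.2 CPM in the controls and 25.0, 26.6, 10.6 and 16.8 CPM in the 2-DG libraries. It had the lowest log2 fold change of the set, -0.39 with a standard error of 0.50 (95% interval -1.48 to 0.71, adjusted p = 0.871 in edgeR), and its 2-DG libraries all lay within the control range.

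**Figure D1:**
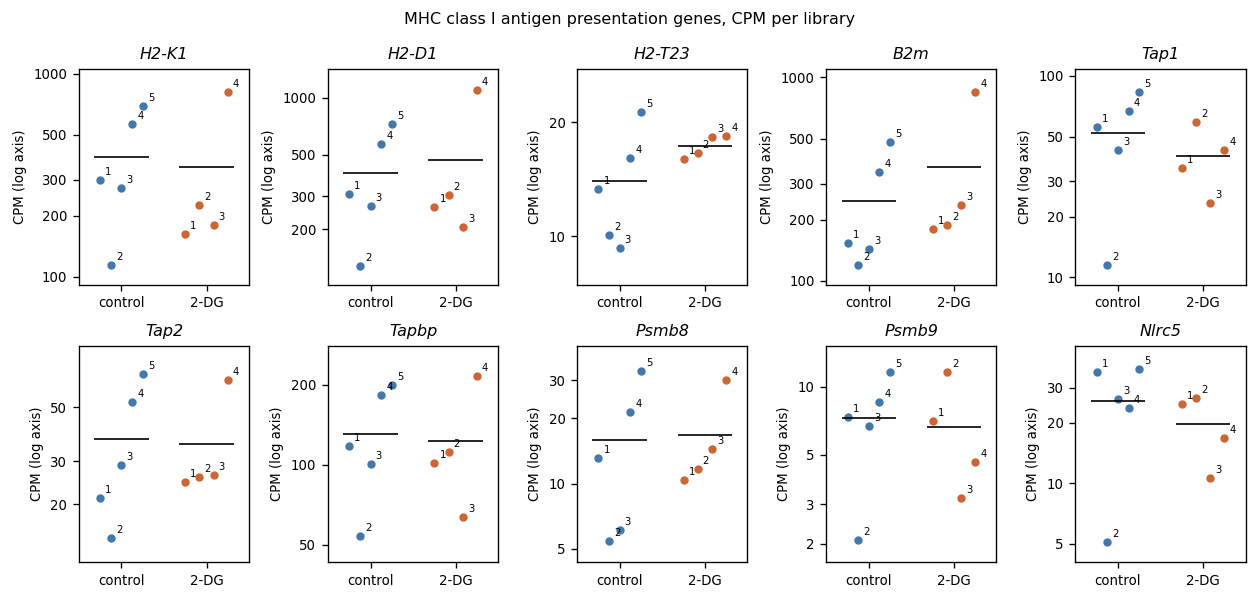
CPM on the TMM-scaled library size (log axis, a scale of its own in each panel) of the 10 genes, with 1 point per library, its replicate number beside it and a black line at the group mean (control n = 5, 2-DG n = 4). Control replicate 2 is the lowest point in 9 of the 10 panels, and the groups overlap in all 10.

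Variation within the groups was larger for 9 of these genes than for the median gene tested. The within-group SD of log2 CPM was 0.37 for H2-T23 and between 0.75 (Tapbp) and 1.05 (H2-K1) for the other 9 members, with a median of 0.94. Over all genes tested the median was 0.62, and over those with a mean of at least 5 CPM it was 0.48. The members moved together between libraries. Control replicate 2 was lowest for 9 of 10 members (control replicate 3 for H2-T23). Control replicate 5 was among the 3 highest libraries for all 10 members, control replicate 4 for 8 and 2-DG replicate 4 for 7. Averaged over the members, centred log2 CPM was -0.01, -1.33, -0.29, 0.57 and 0.98 in control replicates 1 to 5 and -0.23, 0.04, -0.49 and 0.77 in 2-DG replicates 1 to 4.

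The exceptions to this shared pattern were Tap1, Psmb9 and Nlrc5. In 2-DG replicate 4 these ranked sixth or seventh of 9 libraries, while the other 7 members ranked first or second. In 2-DG replicate 3, Tap1, Psmb9 and Nlrc5 ranked eighth, as did H2-D1 and Tapbp. Pearson's r with the mean profile of the set was 0.966 for Tapbp, 0.953 for H2-D1 and 0.935 for H2-K1, against 0.713 for Psmb9, 0.712 for Nlrc5 and 0.691 for H2-T23 over the same 9 libraries. Each member is part of that mean, so these values are a description.

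Markers of other cell types moved with some of these levels. The summed level of 10 vascular endothelium markers was 468, 687, 736, 1499.7 and 2791 CPM in control replicates 1 to 5 and 867, 712, 1529.8 and 4038 CPM in 2-DG replicates 1 to 4. The libraries with the highest H2-K1, H2-D1, B2m and Tapbp, 2-DG replicate 4 and control replicate 5, were also the highest for endothelial markers. In 2-DG replicate 4, however, Tap1, Psmb9 and Nlrc5 ranked 6, 7 and 7 of the 9 libraries. 2-DG replicate 3, at 1529.8 CPM of endothelial markers, ranked 7, 8, 4 and 8 for H2-K1, H2-D1, B2m and Tapbp. Control replicate 5 was also the highest library for Müller glia, pericyte and pigment epithelium markers (7312, 304 and 972 CPM). An alternative with the log2 summed endothelial level as a covariate was chosen after seeing the data. The log2 fold changes became -0.67 for H2-K1, -0.22 for H2-D1 and 0.02 for B2m, and 0 members passed. With the log2 summed rod level as the covariate, also chosen after seeing the data, they were -0.24, 0.17 and 0.49, and 0 members passed. The part of either level in the members' variation was not tested further. In whole explants more cells of a type and more RNA per cell cannot be told apart.

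Microglia markers summed to 35.2 to 78.4 CPM in controls and 37.1 to 103 CPM in 2-DG libraries, highest in 2-DG replicate 3 and control replicate 1. T and natural killer lymphocyte markers summed to 1.22 to 2.75 CPM in controls and 2.43 to 3.90 CPM in 2-DG libraries, with 8 of 10 genes, among them Cd3e, Cd4, Nkg7 and Ncr1, under 1 CPM in every library. Markers of macrophages, monocytes and dendritic cells summed to 15.7 to 34.9 CPM and 14.3 to 40.1 CPM. Retinal pigment epithelium markers, a list that shares Rlbp1 with that of Müller glia, summed to 153 to 972 CPM in controls and 93.2 to 509 CPM in 2-DG libraries. The pigment epithelium had been removed, and the cells behind this sum were not tested. Müller glia markers summed to 2132 to 7312 CPM in controls and 1258 to 4048 CPM in 2-DG libraries, a difference of -0.78 in the log2 sum (range -1.09 to -0.52 with 1 library left out). Of these 10 genes 3 were lower at an unadjusted p under 0.05, beside 4.83% of all genes, and 1 was higher, beside 2.42%. The summed level passed the test for none of the 10 marker lists, Müller glia and pericytes included (exact two-sided permutation tests, adjusted p = 0.786 for each, the smallest unadjusted p being 0.111 for lymphocytes). Without control replicate 2 the difference in the log2 rod sum turned from -0.24 to 0.23.

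Per kilobase of annotated exon, B2m was the most abundant member, with 288 ± 183 CPM per kb in controls (SD, n = 5) and 422 ± 377 CPM per kb in 2-DG explants (SD, n = 4). H2-D1 followed at 154 ± 93.7 and 181 ± 164 CPM per kb, H2-K1 at 133 ± 80.5 and 118 ± 107, and Tapbp at 36.1 ± 16.6 and 33.9 ± 17.9. Although the SDs of these 4 genes are wide, the order B2m, H2-D1, H2-K1, Tapbp, Tap2 held within all 9 libraries. Below them the order was not fixed. Tap2 (9.83 ± 5.98 CPM per kb in controls) exceeded Tap1 (9.51 ± 4.95) in 6 of 9 libraries, Tap1 exceeded H2-T23 (4.85 ± 1.69) in 7, and H2-T23 exceeded Psmb8 (4.69 ± 3.44) in 6. Psmb8 exceeded Nlrc5 (3.03 ± 1.52) in 7 of 9 libraries, and Nlrc5 exceeded Psmb9 (1.99 ± 0.952), the scarcest member, in 8. Exon lengths include retained-intron transcripts, which lowers the value per kb of genes that have them.

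Without control replicate 2, the library with the lowest members, 7 of 10 members had a lower level in 2-DG explants and 3 a higher one, with a median log2 fold change of -0.28 beside 0.03 over all genes. The number called at an adjusted p under 0.05 was 0 of 10, beside 0.0775% of 20632 genes, and at an unadjusted p under 0.05 it was 0 of 10, beside 8.99%. Nlrc5 came to -0.65 (SE 0.31, 95% interval -1.36 to 0.06, adjusted p = 0.603 in edgeR) and Tap1 to -0.64 (SE 0.31, 95% interval -1.34 to 0.06, adjusted p = 0.604 in edgeR). H2-K1 came to -0.41 (SE 0.57), H2-D1 to 0.01 (SE 0.57) and B2m to 0.37 (SE 0.60). H2-T23 came to 0.21, Tap2 to -0.28, Tapbp to -0.29 and Psmb9 to -0.39, and Psmb8 turned to -0.15. The 95% interval of H2-K1 ran from -1.70 to 0.87 and that of B2m from -0.99 to 1.74, so that large differences in either direction remained within the interval.

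**Figure D2:**
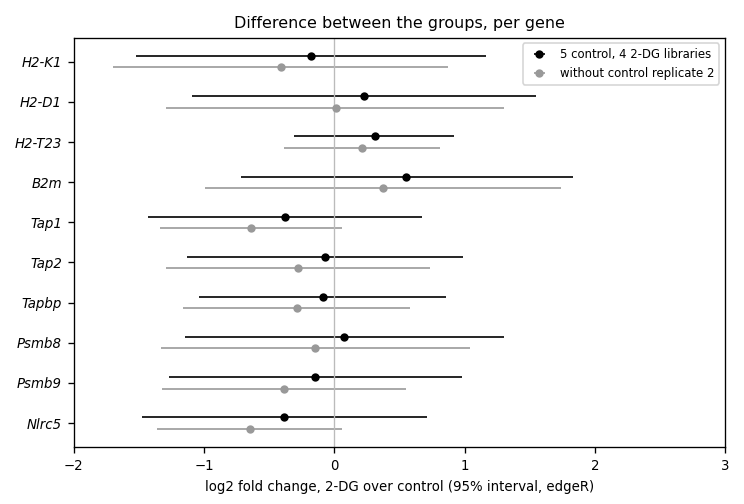
Log2 fold change of each gene, 2-DG over control, with 95% intervals from edgeR for all 9 libraries (black) and for 8 libraries without control replicate 2 (grey). All 20 intervals include 0, and all 10 points move to the left without that library.

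The immunoproteasome was also compared with the constitutive subunits it displaces, as a log2 ratio of counts within each library. For Psmb8 over Psmb5 the mean was -1.94 ± 0.95 in controls (SD, n = 5) and -1.92 ± 0.30 in 2-DG explants (SD, n = 4). For Psmb9 over Psmb6 it was -4.13 ± 0.85 and -4.50 ± 0.97. For Psmb10 over Psmb7 it was -2.54 ± 0.26 and -2.52 ± 0.32. The constitutive subunit was the more abundant one for every pair in every library. The differences in log2 ratio, 0.02, -0.37 and 0.03, were within the spread of the libraries (exact two-sided permutation p = 0.960, 0.563 and 0.897, adjusted p = 0.960 for each over 3 ratios). The smallest p-value that 5 against 4 libraries can give is 0.00794. Without control replicate 2 the differences were -0.32 for Psmb8 over Psmb5, -0.74 for Psmb9 over Psmb6 and 0.02 for Psmb10 over Psmb7, and without 2-DG replicate 4 they were -0.06, -0.03 and 0.14.

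The log2 ratio of H2-D1 to H2-K1 is described because reads of these relatives are hard to divide. It was noticed after the values were seen, as the 1 of 45 pairs of members whose groups did not overlap, beside 2.91% of all pairs of genes tested, so that the count of pairs is no result about the members. The log2 ratio of H2-D1 to H2-K1 was 0.03, 0.15, -0.05, 0.00 and 0.05 in control replicates 1 to 5 and 0.70, 0.44, 0.19 and 0.43 in 2-DG replicates 1 to 4. The gap between the groups was small, from 0.15 in control replicate 2 to 0.19 in 2-DG replicate 3. The means were 0.04 ± 0.08 (SD, n = 5) and 0.44 ± 0.21 (SD, n = 4), a difference of 0.40 (exact two-sided permutation p = 0.00794, the smallest possible). Adjusted over the 45 pairs, 0 pairs passed 0.05. The difference stayed between 0.32 and 0.49 when any 1 library was left out, control replicate 2 included. The pair was picked because its groups did not overlap, so neither this range nor the p is independent support.

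The transcript table was used to divide this difference. H2-K1 has 16 annotated transcripts in that table, of which 7 are classed as retained intron, and H2-D1 has 3, of which 1 is. Over all transcripts the difference in the log2 ratio of H2-D1 to H2-K1 was 0.39, with groups that did not overlap. Over protein-coding transcripts alone the ratio was 1.11, 1.02, 1.09, 0.65 and 0.75 in the controls and 1.13, 1.16, 0.92 and 0.83 in the 2-DG libraries. The groups then overlapped, and the difference was 0.08 (exact two-sided permutation p = 0.508).

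**Figure D3:**
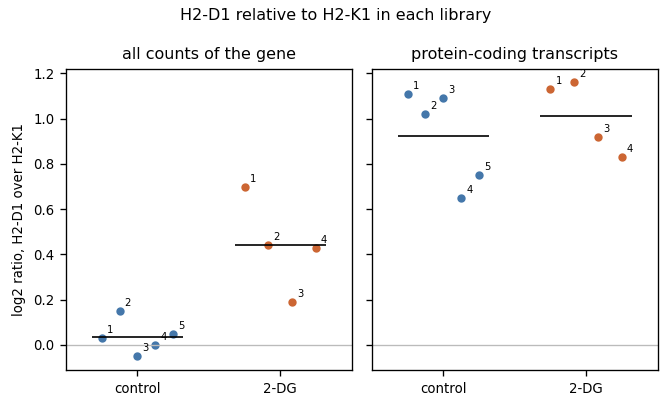
Log2 ratio of H2-D1 to H2-K1 in each library, from the gene table (left) and from transcripts annotated as protein coding (right), with replicate numbers and black lines at the group means. On the left all 4 2-DG libraries, at 0.19 to 0.70, lie above the 5 control libraries, at -0.05 to 0.15, and on the right the groups overlap.

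The share of H2-K1 counts on retained-intron transcripts was 50.7%, 46.2%, 54.5%, 39.9% and 40.6% in control replicates 1 to 5 and 32.1%, 38.5%, 34.5% and 28.8% in 2-DG replicates 1 to 4. Every 2-DG library lay below every control library, with a mean of 33.5% ± 4.07 (SD, n = 4) against 46.4% ± 6.30 (SD, n = 5). The coding transcript H2-K1-201 took 24.5% to 43.4% of the gene in controls and 46.2% to 58.0% in 2-DG libraries. H2-T23 showed the same order, with 36.4%, 41.1%, 41.7%, 27.8% and 35.5% in the controls and 25.5%, 26.3% and 20.0% in 2-DG replicates 1 to 3, with replicate 4 between them. Its single coding transcript made up the rest. The exact two-sided permutation p was 0.0159 for each gene, and the adjusted p over all 7169 genes with enough counts was 0.930. The mean share without control replicate 2 differed by -12.9 points for H2-K1 and by -11.4 points for H2-T23.

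Groups that did not overlap, with the lower share in 2-DG explants, were thus found for 2 of 9 members with retained-intron transcripts, beside 0.809% of the 7169 genes compared. The mean share was lower in 2-DG explants for 8 of the 9 members, beside 45.0% of all genes compared, whose median difference was 0.133 percentage points upward. For Psmb8 the means were 47.9% ± 9.88 and 40.3% ± 6.53, and for Psmb9 32.7% ± 12.4 and 25.4% ± 6.69, both with overlapping groups. Tap1 measured 20.5% ± 3.55 and 15.8% ± 6.15. Nlrc5, the exception in direction, measured 4.52% ± 3.33 and 6.02% ± 6.40.

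Tap2 stood apart by its level, since 72.3% to 89.0% of its counts in every library were on 1 retained-intron transcript, Tap2-202. Only 9.33% to 26.5% were on its main coding transcript Tap2-201. H2-D1 and Tapbp held under 5% on such transcripts in all libraries, and B2m has 1 transcript, which is coding. Total RNA holds unspliced and nuclear RNA, and the division of reads between transcripts of a gene is an estimate whose error the table does not give. These shares were examined after the members' values had been seen.

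**Figure D4:**
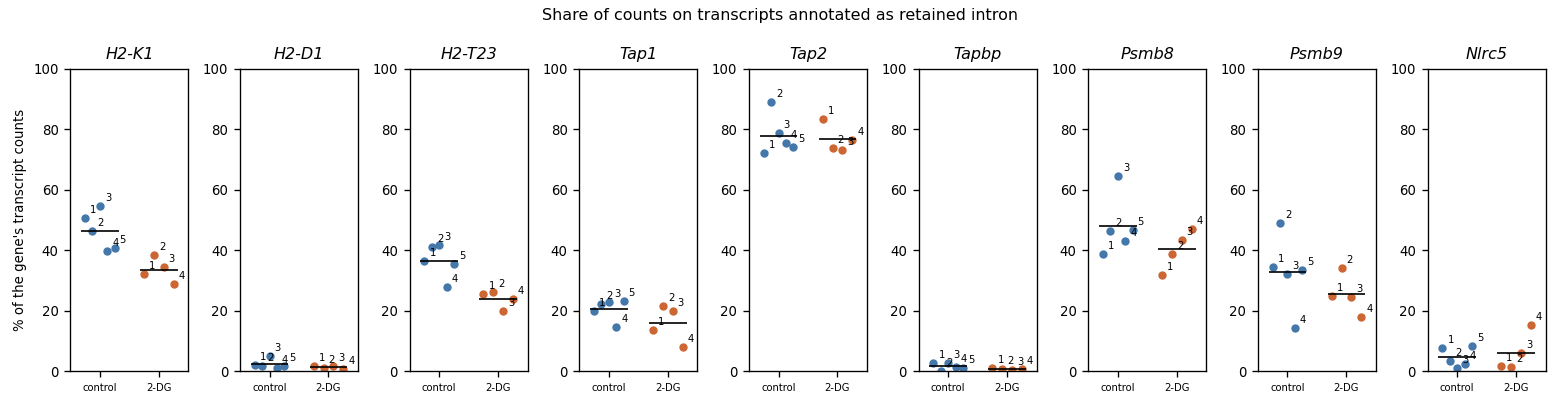
Share of each gene's transcript counts (percent) on transcripts annotated as retained intron, for the 9 members that have any, with 1 point per library and black lines at the group means. H2-K1 and H2-T23 are the panels in which all 4 2-DG points lie below all 5 control points.

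Sequence shared with other genes limits how reads of the heavy chains could be divided. Of the distinct 31-base words in annotated H2-K1 transcripts, 22.8% also occur in transcripts of other genes, 11.1% in H2-D1 and 9.5% in H2-Q10. For H2-D1 the share is 26.9%, with 13.8% in H2-K1, and for H2-T23 it is 25.8%, with 12.4% in the pseudogene H2-T-ps. Tapbp shares 26.9% of its words, mostly with the overlapping Gm19412, Tap2 14.3%, Psmb8 13.7%, Psmb9 4.79%, all with Tap1 on the other strand, and Tap1 4.09%, of which 3.26% with Psmb9 and 0.789% with Gm15821. B2m shares 0% and Nlrc5 0.579%. The levels of H2-K1, H2-D1 and H2-T23 are therefore uncertain by an amount that was not measured, and whether the counting used strand is not given in the sources used here.

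The genes around the pathway did not move as a block. Of 9 genes of peptide editing and loading, all 9 had a higher level in 2-DG explants and 5 had an unadjusted p under 0.05, beside 2.42% of all genes in that direction, with a median log2 fold change of 0.66. These 5 were Calr (331 ± 80.5 CPM in controls and 821 ± 249.9 CPM in 2-DG explants, log2 fold change 1.31, SE 0.30), Pdia3 (1.20, SE 0.25), Sec61b (0.87, SE 0.28), Sec61a1 (0.68, SE 0.18) and Canx (0.66, SE 0.27). Calr, Pdia3 and Canx are general chaperones of glycoprotein folding in the endoplasmic reticulum and Sec61a1 and Sec61b form its translocation channel. For Calr, Pdia3, Sec61a1 and Canx the groups did not overlap, beside 2.93% of all genes tested. None of the 9 passed an adjusted p of 0.05 in edgeR, where the lowest was 0.494 for Pdia3. The tools differed here. DESeq2 called 3 of the 9, beside 0.382% of all genes higher in 2-DG, with an adjusted p of 0.000916 for Pdia3, 0.00576 for Calr and 0.00773 for Sec61a1. With limma-voom 4 were called, beside 1.54% of all genes in that direction, the same 3 (adjusted p = 0.00563, 0.00604 and 0.0219) and Sec61b (0.0407). Without control replicate 2, 8 of the 9 were higher, with a median of 0.52, and the same 5 had an unadjusted p under 0.05, beside 2.92% of all genes in that direction. The trimming peptidase Erap1 had 0.59 (SE 0.35) and the tapasin-related editor Tapbpl 0.06 (SE 0.45).

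Of 30 other interferon-stimulated genes, 27 had a lower level in 2-DG explants and 7 had an unadjusted p under 0.05 in that direction, beside 4.83% of all genes, with a median log2 fold change of -0.87. The 7 were the restriction factor Trim30a (41.0 ± 18.5 CPM in controls and 11.4 ± 2.53 CPM in 2-DG explants, log2 fold change -1.85, SE 0.43), the antiviral genes Oas2 (-2.17, SE 0.71), Mx2 (-1.76, SE 0.69), Ifit3 (-1.52, SE 0.60) and Ifit2 (-1.10, SE 0.49), the chemokine Cxcl10 (-2.55, SE 1.14) and the GTPase Gbp5 (-1.70, SE 0.77). The groups overlapped in all 30, where 2.93% of all genes tested had groups that did not overlap. None passed an adjusted p of 0.05 in edgeR, the lowest being 0.514 for Trim30a. DESeq2 called Trim30a alone of the 30 (adjusted p = 0.00838), beside 0.975% of all genes lower in 2-DG. With limma-voom 11 of the 30 were called, beside 4.27% of all genes in that direction, among them Trim30a (adjusted p = 0.00793), Oas2 (0.0314) and Mx2 (0.0361). Without control replicate 2, 28 of 30 were lower, with a median of -1.13, and 19 had an unadjusted p under 0.05 in that direction, beside 6.07% of all genes. The adjusted count was then 1, beside 0.0775% of all genes, for Trim30a with a log2 fold change of -2.10 (adjusted p = 0.0340 in edgeR). The count at an unadjusted p under 0.05 was also higher without 2-DG replicate 4, at 13 of 30 beside 9.49% of all genes. It was 4 without 2-DG replicate 2 (beside 3.28%) and 2 without 2-DG replicate 1 (3.17%), 2-DG replicate 3 (4.42%), control replicate 4 (3.28%) or control replicate 5 (3.32%). Between 26 and 30 of the 30 genes were lower whichever library was left out. The class I members, at 6 of 10 lower and a median of -0.08, stood between these lists, and the difference between lists was not tested.

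Among 30 tested regulators and interferon signalling genes, 16 were lower and 1, the feedback inhibitor Socs1 (-1.22, SE 0.55), had an unadjusted p under 0.05, beside 4.83% of all genes in that direction. With limma-voom 19 of the 30 were lower with a median of -0.33, and 12 had an unadjusted p under 0.05, beside 26.0% of all genes. At an adjusted p under 0.05 limma-voom called 1, Socs1 (0.0439), beside 4.27% of all genes lower in 2-DG. DESeq2 called 0 of the 30, beside 0.975% of all genes lower and 0.382% higher in 2-DG. When control replicate 2 was left out, 20 of the 30 were lower and 5 had an unadjusted p under 0.05, beside 6.07% of all genes. These were Usp18 (log2 fold change -1.26), Socs1 (-1.48), Irf9 (-0.58), Socs3 (-1.01) and Nfyb (-0.44), of which none passed an adjusted p of 0.05 in edgeR. Leaving out each library in turn gave 11 to 21 lower genes, and 3 at an unadjusted p under 0.05 without 2-DG replicate 4, beside 9.49% of all genes, so that the list had no fixed direction. With all 9 libraries Usp18, which dampens interferon receptor signalling, had -0.98 (SE 0.55). Irf1, which acts on class I promoters, had -0.77 (SE 0.70) with 149.8 ± 118 CPM in controls and 88.1 ± 75.6 CPM in 2-DG explants. Of the promoter-binding partners of Nlrc5, Rfx5 had -0.40 (SE 0.25) and Rfxap 0.33 (SE 0.20). Ifnb1 was detected at 2.42 ± 2.20 CPM and 2.54 ± 3.88 CPM, and Ifng, with a control mean of 0.0158 CPM and 2-DG libraries at 0, was not tested.

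The other class I heavy chains were 22 listed genes, of which H2-T9 was not in the table and 18 were tested. They were divided, with 8 higher, 10 lower and a median of -0.05. H2-M2, a scarce non-classical gene, was the one with an unadjusted p under 0.05 (3.61 ± 1.96 CPM in controls and 0.681 ± 0.863 CPM in 2-DG explants, log2 fold change -2.38, SE 0.83, adjusted p = 0.602 in edgeR), beside 4.83% of all genes in that direction. With control replicate 2 left out, 11 were lower and 3 had an unadjusted p under 0.05, beside 6.07% of all genes, namely H2-M2 (-2.63), H2-Q10 (-1.22) and H2-T24 (-1.33). DESeq2 called 0 of the 18, and limma-voom called 5, all lower, beside 4.27% of all genes in that direction, with an adjusted p of 0.00685 for H2-M2 and 0.0379 to 0.0474 for H2-Q10, H2-Q5, H2-K2 and H2-Q6. Leaving out 2-DG replicate 4 gave 11 lower genes and 7 with an unadjusted p under 0.05 in that direction, beside 9.49% of all genes, and moved H2-M2 to -3.85 and H2-K2 to -1.30. Leaving out control replicate 5 gave 9 higher and 9 lower genes with a median of 0.05, and 2 higher at an unadjusted p under 0.05, beside 2.40% of all genes, where leaving out 2-DG replicate 2 gave 1, beside 1.82%. In edgeR with all libraries H2-K2, a relative of H2-K1, had -0.83 (SE 0.39) and Fcgrt, the neonatal Fc receptor chain that also pairs with B2m, 0.82 (SE 0.39). The 12 proteasome genes tested were constitutive subunits, activators, the assembly factor Pomp and the inducible subunit Psmb10. All 12 had a higher fitted level, with a median of 0.24 and a range from 0.06 to 0.48. Of them 0 had an unadjusted p under 0.05, beside 2.42% of all genes in that direction. After leaving out control replicate 2, 11 of the 12 were higher, with a median of 0.19, and Pomp, at 0.00, was not. The direction rested more on 2-DG replicate 4, without which 6 of the 12 were higher and 6 lower, with a median of 0.00. The 3 with the lowest p were Psmb1 (0.48, SE 0.26), Psme1 (0.42, SE 0.30) and Psmb6 (0.30, SE 0.24), which without 2-DG replicate 4 had 0.15, 0.04 and 0.03.

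MHC class II genes, which serve antigen presenting cells, were scarce. Of 8 tested, 7 were lower, with a median of -0.24 and 0 with an unadjusted p under 0.05 in edgeR, beside 7.25% of all genes. With limma-voom 7 were lower with a median of -0.91, and 3 had an unadjusted p under 0.05, beside 26.0% of all genes. Neither limma-voom nor DESeq2 called any of them at an adjusted p under 0.05. In the 8 libraries without control replicate 2, 7 of 8 genes were lower, with a median of -0.32, and Cd74 had an unadjusted p under 0.05 (log2 fold change -1.08, adjusted p = 0.229 in edgeR), beside 6.07% of all genes in that direction. With all libraries the invariant chain Cd74 measured 9.95 ± 5.29 CPM in controls and 5.56 ± 0.622 CPM in 2-DG explants (log2 fold change -0.84, SE 0.45), H2-Ab1 had -0.65 (SE 0.58) and H2-Ob 0.67 (SE 0.48). The value of H2-Ab1 rested in part on control replicate 5, without which it was -0.26.

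**Figure D5:**
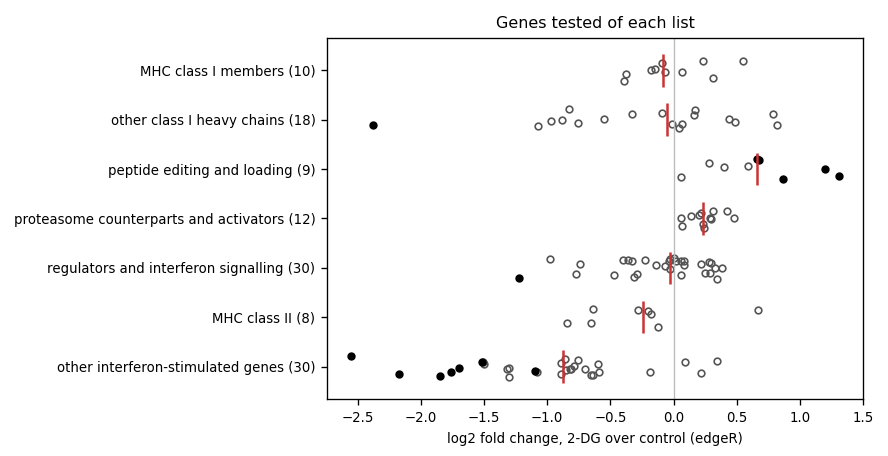
Log2 fold change, 2-DG over control, of each gene tested in 7 lists, with the number of genes in parentheses. Open circles have an unadjusted p of 0.05 or more, filled circles a lower one, and red lines mark the medians, which run from -0.87 for the other interferon-stimulated genes to 0.66 for peptide editing and loading, with the class I members at -0.08.

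The protein-coding genes outside these lists whose level over the 9 libraries was most like the mean profile of the members were sought among 12108 with a mean of at least 5 CPM. The first 8 were Disp1 (r = 0.985), Uck2 (0.983), Sept9 (0.979), Lgals3bp (0.977), Anapc7 (0.976), Zfp710 (0.972), Rgs16 (0.969) and Slc12a4 (0.969). Spearman's rho for these 8 lay between 0.817 and 0.983. Without control replicates 2 and 5, the libraries farthest from the median of the profile, r lay between 0.906 and 0.979. They were taken as the highest of many and carry no p.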

How the data were processed

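RNA-seq of 9 retinal explant libraries, 5 control and 4 2-DG, was analysed from the deposited tables. The authors deposited 2 tables of unscaled estimated counts, for 55487 genes and for 142699 transcripts. Per the labels, kallisto and GRCm38 were used, and the software settings are not given in the sources used here. The authors also deposited a table of 12568 genes scaled between libraries and named CPM. The values the authors deposited there sum to between 936039 and 1214015 per library, so they were treated as a score and served as an alternative. A table of the authors' own comparison, with fold changes and p-values, was not used. The members and the lists of related genes were chosen with earlier results of these data known.

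Estimated counts were rounded, filtered with filterByExpr, scaled by TMM and tested in edgeR 4.0.16 (R 4.3.3) with glmQLFit (legacy=TRUE) and glmQLFTest, with the group as the only term. Benjamini-Hochberg adjustment covered the 21049 genes kept, with a threshold of 0.05. CPM are on the TMM-scaled library size, and standard errors are the absolute log2 fold change over the square root of F. Ratios used a prior count of 0.5 and marker sums log2(CPM + 1), with exact two-sided permutation tests over libraries. Retained-intron shares were computed from the transcript table and GENCODE M21 transcript classes for genes with at least 20 counts in every library and at least 20 on such transcripts in total. Of the gene IDs, 99.4% matched M21, whose gene coordinates are printed. Named companion genes were those with an unadjusted p under 0.05, otherwise the 3 with the lowest p, and genes needed to read a count. The genes named under DESeq2, limma-voom or without control replicate 2, and Irf1, Rfx5, Ifnb1, Ifng, Erap1 and Tapbpl were named for their role after their values were seen, as were the H2-D1 to H2-K1 ratio, the retained-intron shares and the endothelial and rod covariates. Alternatives were other scalings, filters and tests (DESeq2 1.42.0, limma 3.58.1), the transcript sum, a replicate block, and each library left out. The edgeR fit and the permutation test were tested on simulated data. 0 sample columns remained without a sample. One gene of the regulator list is not reported by name here.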

Additional observations from a re-analysis of the deposited data

Results flagged for a closer look

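In 46 groups of values examined (10 members, 3 ratios and 10 marker lists, each in both groups), a library lay far from the others of its group, by the gap to its nearest neighbour over the range of the group, in 5 by Dixon's 95% criterion, and chance alone gives about 1 in 20. For Tap2 this was 2-DG replicate 4, at a log2 CPM of 6.02 against 4.63 to 4.72 (ratio of gap to range 0.933). In the control group it was replicate 2 each time. Nlrc5 there was at a log2 CPM of 2.37 against 4.58 to 5.22 (ratio 0.775). The log2 ratio of Psmb9 to Psmb6 was -5.64 against -3.91 to -3.51 (ratio 0.812). The summed cone markers were at 9.18 against 6.16 to 6.70 on the log2 scale (ratio 0.821), and the summed markers of macrophages, monocytes and dendritic cells at 4.06 against 5.00 to 5.17 (ratio 0.850). Without 2-DG replicate 4 the log2 fold change of Tap2 was -0.54, and without control replicate 2 that of Nlrc5 was -0.65 and the difference in the log2 ratio of Psmb9 to Psmb6 was -0.74 (exact two-sided permutation p = 0.229), while without 2-DG replicate 4 the latter was -0.03. The cause of these deviations was not tested.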

How the results depend on the processing

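In each of the 21 other settings, 0 of the 10 members passed an adjusted p of 0.05, and Tap1, Nlrc5 and H2-T23 kept their direction. At an unadjusted p under 0.05, 1 member was found with limma-voom (H2-K1), beside 26.0% of all genes, and 1 with the replicate block (B2m), beside 6.42%. The replicate numbers were not taken to pair the libraries, since 1 of the 4 correlations of deviations was negative (0.451, -0.155, 0.102 and 0.205 for numbers 1 to 4), in the pair that holds control replicate 2. In that paired fit 3 of the 10 members were lower rather than 6, and Tap2 (0.30), Tapbp (0.10) and Psmb9 (0.01) turned positive. Log2 fold changes also turned sign for Psmb8 with upper-quartile scaling (-0.02) and library size only (-0.04), for H2-D1 (-0.45), B2m (-0.23) and Psmb8 (-0.37) with limma-voom, and for H2-D1 (-0.22) and Psmb8 (-0.19) with the endothelial covariate. The median over all genes moved by under 0.1 with scaling. Leaving out 1 library gave 2 to 9 lower members, a range of -1.05 to 0.13 for H2-K1, -0.62 to 0.56 for H2-D1, -0.30 to 0.93 for B2m, -0.54 to 0.26 for Tap2, -0.50 to 0.13 for Tapbp, -0.38 to 0.52 for Psmb8, -0.56 to 0.09 for Psmb9, -0.64 (without control replicate 2) to -0.15 (without control replicate 5) for Tap1, -0.65 (without control replicate 2) to -0.17 (without 2-DG replicate 3) for Nlrc5 and 0.19 (without control replicate 3) to 0.50 (without control replicate 5) for H2-T23. Without 2-DG replicate 4, and with limma-voom, 9 members were lower, and without control replicate 5 or 2-DG replicate 3, 2 were.

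Over all genes, the number at an adjusted p under 0.05 was 284 with DESeq2, 1222 with limma-voom, 1 with the endothelial covariate and 0 to 16 with 1 library left out (16 without control replicate 2, 2 without 2-DG replicate 4). At an unadjusted p under 0.05 it was 2642 without a filter, 5474 with limma-voom, 606 from the deposited CPM, 3372 with the endothelial covariate and 921 to 2721 with 1 library left out. The log2 ratio of Psmb8 to Psmb5 differed by 0.00 from the deposited CPM, which lacks Psmb9, and by -0.32 to 0.30 with 1 library left out. That of Psmb9 to Psmb6 differed by -0.75 to -0.03 and that of Psmb10 to Psmb7 by -0.09 to 0.14. Marker sums differed by -0.55 to 0.23 for rods, -0.25 to 1.05 for cones, -0.14 to 0.34 for microglia, -0.02 to 0.86 for endothelium, -0.10 to 0.30 for pericytes and -0.42 to 0.06 for macrophages, monocytes and dendritic cells. The retained-intron share differed by -14.6 to -10.9 points for H2-K1, -14.7 to -11.2 for H2-T23 (exact permutation p = 0.0536 without 2-DG replicate 3), -3.36 to 1.60 for Tap2 and -1.53 to 3.03 for Nlrc5. With at least 50 counts per gene, 0.808% of genes had a lower share and groups that did not overlap. The cause of these shifts was not tested.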
